A study of Mus musculus with 8 samples.

Results

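The genes described here are 10 components of the oxygen-sensing machinery of the cell: the hypoxia-inducible factor (HIF) subunit genes Hif1a, Epas1, Hif3a, Arnt and Arnt2, the HIF prolyl hydroxylase genes Egln1, Egln2 and Egln3, the asparaginyl hydroxylase gene Hif1an and the ubiquitin ligase gene Vhl. They were chosen by name for their role in the pathway, and all 10 were among the 22180 genes with a named probe set on the array. Chondrocytes of joint cartilage in primary culture, taken from wild-type mice of the ICR strain at an age of 5 days, were infected with Ad-Zip8, an adenovirus that carries the zinc transporter ZIP8 (4 arrays), or with Ad-null, a control adenovirus (4 arrays). Both groups carried an adenovirus, both were collected 24 h after infection, and both were grown as a monolayer. The labels call the arrays biological replicates but name no animal, litter or pool for any culture. The p-values therefore measure only the spread among these 8 arrays, part of which may be technical.

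HIF is a dimer of an oxygen-regulated alpha subunit and a stable beta subunit. When oxygen is present, the EGLN enzymes, which need iron and 2-oxoglutarate, hydroxylate prolines of the alpha subunit. VHL then binds it and leads it to the proteasome, while the HIF1AN enzyme hydroxylates an asparagine and so hinders the binding of coactivators. Control is thus largely on the protein, which arrays of RNA do not measure. Cartilage has no blood vessels, HIF-1 alpha is needed for survival of growth plate chondrocytes, and HIF-2 alpha, the Epas1 product, is known in mouse cartilage as an inducer of matrix-degrading enzymes.

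All values are probe set levels on the log2 scale of RMA, a method that corrects background, equalises the arrays and summarises each probe set. Slc39a8, the gene of ZIP8, lay between 10.90 and 11.24 in Ad-Zip8 arrays, against 6.12 to 6.27 in Ad-null arrays, so no array went against its label. All 10 chondrocyte markers exceeded the array medians (5.04 to 5.11) in both groups. With Ad-Zip8, 8 of them were lower (limma adjusted p under 0.05), where 5.12% of all genes were lower and 5.48% higher. The median log2 change of the 10 markers was -0.49. Their summed level was 15.2 to 15.4 in Ad-Zip8 arrays, against 15.8 in each Ad-null array. In bulk RNA, fewer cells of a type and less RNA per cell cannot be told apart. Of 8 fibroblast markers 2 were higher and 2 lower at the same threshold. The summed level of the fibroblast list was 12.0 to 12.3 with Ad-Zip8, against 12.1 to 12.5 with Ad-null. The part of these shifts in the results below was not tested.

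Epas1, Egln3, Egln1 and Hif1a rose in the Ad-Zip8 chondrocytes, and none of the 10 genes was called lower, though 3 had a log2 change below 0. These 4 calls were made by limma at an adjusted p under 0.05 over all genes, a threshold at which 10.6% of all genes tested were called, 5.48% as higher and 5.12% as lower. At an unadjusted p under 0.05, limma gave 6 of the 10 as higher and 0 as lower, where 10.3% of all genes were higher and 12.4% lower. In the same 4 genes the groups did not overlap, as in 17.6% of all genes tested. The median log2 change of the 10 genes was 0.23, and that of all genes was -0.02. The 4 genes that rose fall in 2 of the roles, with 2 alpha subunits and 2 prolyl hydroxylases among them. Neither beta subunit gene passed the test, nor did Vhl or Hif1an.

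**Figure D1:**
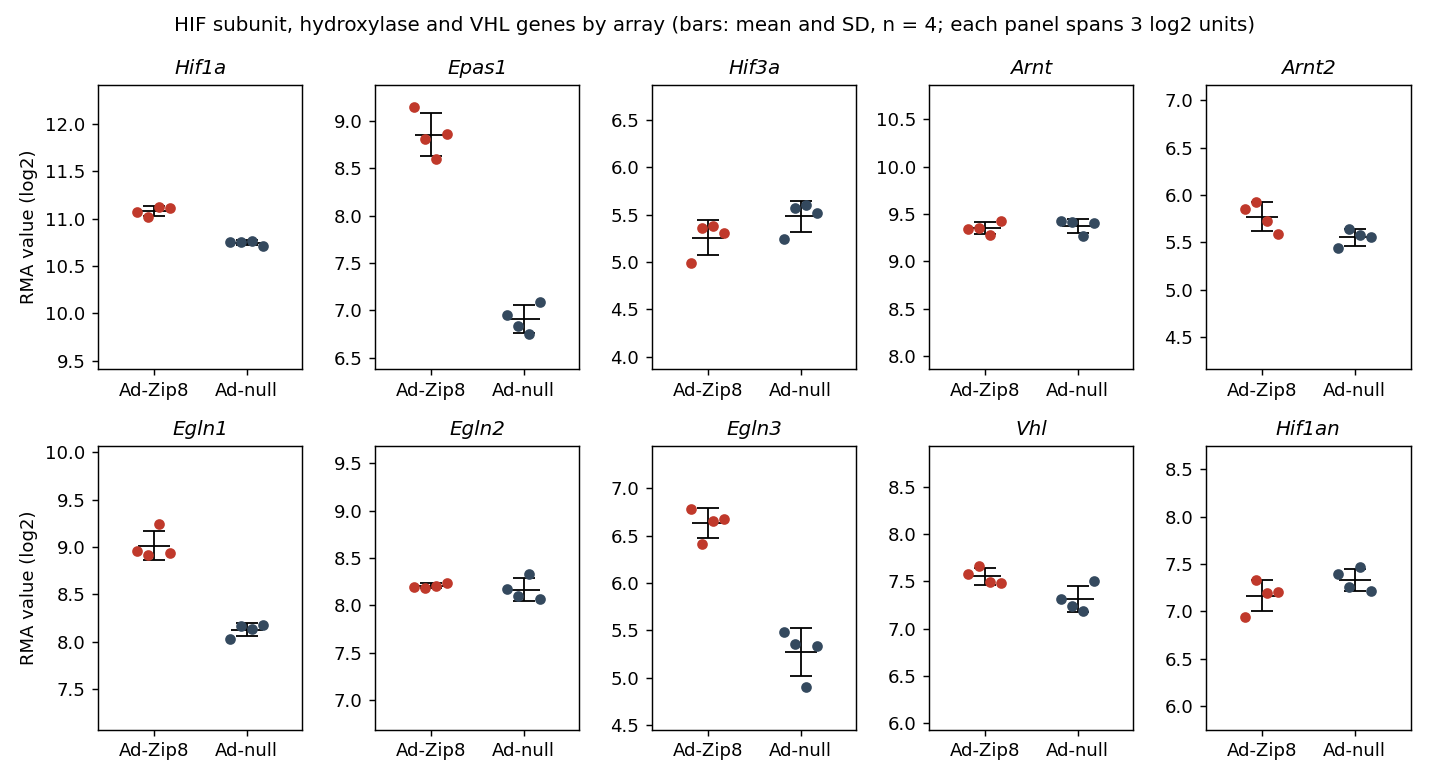
Log2 level of the 10 genes in each array, with Ad-Zip8 on the left and Ad-null on the right of each panel. Points are arrays and bars are mean and SD (n = 4). Each panel spans the same 3 log2 units around its own centre, and the groups stand apart for Epas1, Egln3, Egln1 and Hif1a.

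Among the alpha subunits, Epas1 had levels of 9.15, 8.82, 8.60 and 8.87 in Ad-Zip8 replicates 1 to 4, against 6.95, 6.84, 6.75 and 7.09 in Ad-null replicates 1 to 4. The lowest Ad-Zip8 array stood well above the highest Ad-null array. Epas1 averaged 8.86 ± 0.23 with Ad-Zip8 and 6.91 ± 0.15 with Ad-null (SD, n = 4 each), which is a 3.86-fold difference (log2 change 1.95, SE 0.12, limma adjusted p = 1.14e-05). Its change exceeded that of 99.7% of all genes. Between arrays of the same replicate number it was 1.77 to 2.20, higher with Ad-Zip8 in 4 of 4.

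Hif1a, the gene of the HIF-1 alpha subunit, also rose, by less. Its levels were 11.06, 11.01, 11.12 and 11.11 in Ad-Zip8 replicates 1 to 4, against 10.75, 10.76, 10.76 and 10.71 in Ad-null replicates 1 to 4. The means were 11.08 ± 0.05 with Ad-Zip8 and 10.74 ± 0.02 with Ad-null (SD, n = 4 each), a 1.26-fold difference (log2 change 0.33, SE 0.06, limma adjusted p = 0.00808). The arrays of each group were close together: the pooled SD of Hif1a was 0.039, and only 0.866% of genes had a lower one. A dimmer probe set with the same symbol averaged 5.63 ± 0.20 with Ad-Zip8 and 5.41 ± 0.22 with Ad-null (SD, n = 4 each), had overlapping groups and did not pass (log2 change 0.23, SE 0.13, limma adjusted p = 0.358 over probe sets). With the mean of both probe sets, the Hif1a change was 0.28 (limma adjusted p = 0.0725), so the call rests on the brighter of them.

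Hif3a, whose products include inhibitors of the other alpha subunits, did not pass. Its levels were 4.99, 5.36, 5.38 and 5.30 in Ad-Zip8 replicates 1 to 4, against 5.25, 5.57, 5.60 and 5.52 in Ad-null replicates 1 to 4, all close to the array medians. Each group had its lowest value in replicate 1, and the groups overlapped. The log2 change was -0.22 (SE 0.11, limma adjusted p = 0.283). Between arrays of the same number the difference was -0.26 to -0.21, lower with Ad-Zip8 in 4 of 4. With the replicate number as a block the SE was 0.06 and the limma adjusted p was 0.0754, still short of the threshold.

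The beta subunit genes gave no call. Arnt encodes the common partner of the alpha subunits, and its levels were 9.28 to 9.43 in Ad-Zip8 arrays, against 9.26 to 9.42 in Ad-null arrays. These ranges nearly coincide, and the 95% interval of the log2 change was -0.18 to 0.14 around -0.02, with a sign that turned (0.010) when the arrays were quantile normalized again. Arnt2, a related partner known mainly from neurons, had levels of 5.58 to 5.93 in Ad-Zip8 arrays, against 5.44 to 5.64 in Ad-null arrays. Its groups overlapped by 1 array of each, Ad-Zip8 replicate 4 and Ad-null replicate 2, and its log2 change of 0.22 (SE 0.09) did not pass (limma adjusted p = 0.181).

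Among the prolyl hydroxylases, Egln3 had the largest change. It encodes PHD3, known in other cells as an enzyme that HIF itself induces. Its levels were 6.78, 6.42, 6.66 and 6.68 in Ad-Zip8 replicates 1 to 4, against 5.48, 5.36, 4.90 and 5.33 in Ad-null replicates 1 to 4. The Ad-null arrays lay near the array medians, and the groups did not overlap. The means were 6.63 ± 0.15 with Ad-Zip8 and 5.27 ± 0.25 with Ad-null (SD, n = 4 each), a 2.58-fold difference (log2 change 1.37, SE 0.13, limma adjusted p = 1.44e-04).

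Egln1, which encodes PHD2, the main oxygen sensor of most cells, rose 1.85-fold. Its levels were 8.96, 8.92, 9.25 and 8.93 in Ad-Zip8 replicates 1 to 4, against 8.02, 8.17, 8.14 and 8.17 in Ad-null replicates 1 to 4. Ad-Zip8 replicate 3 stood above the other Ad-Zip8 arrays, which were close together and all above Ad-null. The log2 change was 0.89 (SE 0.09, limma adjusted p = 1.91e-04), and without Ad-Zip8 replicate 3 it was 0.81. Egln2, the gene of PHD1, had levels of 8.18 to 8.24 in Ad-Zip8 arrays, against 8.06 to 8.33 in Ad-null arrays. The Ad-Zip8 values of Egln2 lay inside the Ad-null range, and the 95% interval of its log2 change was -0.13 to 0.21 around 0.04.

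Promoter sequences of the 3 hydroxylase genes and of Hif1a are shown because Egln3, Egln1 and Hif1a rose while Egln2 did not pass, and HIF is known to induce Egln3 and Egln1 in other cells. They are the 250 bases before the transcription start in the set of RefSeq starts used here (GRCm38.p6). This set held a start for 9 of the 10 genes and none for Epas1, the gene with the largest change. For Egln2 the more upstream of its 2 starts is shown. Capitals mark the core of the hypoxia response element, ACGTG or GCGTG on either strand, with overlapping matches joined. The windows are chr12:54203875-54204124 on the minus strand for Egln3, chr8:124949255-124949504 on the minus strand for Egln1, chr7:27166803-27167052 on the minus strand for Egln2 and chr12:73907617-73907866 on the plus strand for Hif1a.
Egln3: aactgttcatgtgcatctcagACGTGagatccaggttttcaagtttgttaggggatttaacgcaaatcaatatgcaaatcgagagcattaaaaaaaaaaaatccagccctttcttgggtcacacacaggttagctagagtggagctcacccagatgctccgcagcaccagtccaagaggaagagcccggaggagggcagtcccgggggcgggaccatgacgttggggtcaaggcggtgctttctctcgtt
Egln1: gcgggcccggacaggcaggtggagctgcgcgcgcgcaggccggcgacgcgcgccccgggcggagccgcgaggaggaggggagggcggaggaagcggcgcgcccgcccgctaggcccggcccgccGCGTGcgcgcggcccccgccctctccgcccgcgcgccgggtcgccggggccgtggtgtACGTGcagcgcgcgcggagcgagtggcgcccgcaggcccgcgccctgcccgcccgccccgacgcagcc
Egln2: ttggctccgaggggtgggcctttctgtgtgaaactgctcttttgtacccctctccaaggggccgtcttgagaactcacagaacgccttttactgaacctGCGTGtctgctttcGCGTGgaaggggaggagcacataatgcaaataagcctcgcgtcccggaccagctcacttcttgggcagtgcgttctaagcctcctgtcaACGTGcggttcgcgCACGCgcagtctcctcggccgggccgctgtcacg
Hif1a: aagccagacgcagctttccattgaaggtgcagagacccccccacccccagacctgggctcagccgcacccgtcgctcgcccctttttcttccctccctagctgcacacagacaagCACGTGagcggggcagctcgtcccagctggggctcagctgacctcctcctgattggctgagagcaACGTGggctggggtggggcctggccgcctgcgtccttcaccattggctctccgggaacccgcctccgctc

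The core was found at 1 place in the Egln3 window, 229 bases before the start. Egln1 had 2 places (126 and 68 bases before the start), Hif1a had 2 (135 and 70 bases) and Egln2 had 4 (151, 137, 48 and 34 bases). The window at the other Egln2 start, not shown, held 1 place (116 bases). Whether these matches bear on the changes was not tested. Of the 10 windows of the 9 genes, 7 held the core, and of all 32851 RefSeq windows of this length 38.6% did. Counted by gene, 6 of the 9 held the core in at least 1 window. The core of the metal response element, which the zinc sensor MTF1 binds, was searched as TGCACNC or TGCGCNC on either strand and may overlap the hypoxia core. It was in 4 of the 10 windows (those of Hif1a, Hif3a, Arnt2 and Egln1) and in 21.4% of all windows. A match of such short letters is a description of the window and shows no binding.

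VHL and HIF1AN act after the EGLN enzymes or beside them, and their genes gave no call. Vhl had levels of 7.58, 7.67, 7.49 and 7.48 in Ad-Zip8 replicates 1 to 4, against 7.32, 7.24, 7.19 and 7.51 in Ad-null replicates 1 to 4. All Ad-Zip8 arrays were above Ad-null replicates 1 to 3, whereas Ad-null replicate 4 lay among them. The log2 change of Vhl was 0.24 (SE 0.09, limma adjusted p = 0.134), and over the alternatives tried its adjusted p was 0.0506 to 0.279. Hif1an had levels of 6.94 to 7.33 in Ad-Zip8 arrays, against 7.21 to 7.47 in Ad-null arrays, with overlapping groups and a log2 change of -0.17 (SE 0.10, limma adjusted p = 0.373).

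**Figure D2:**
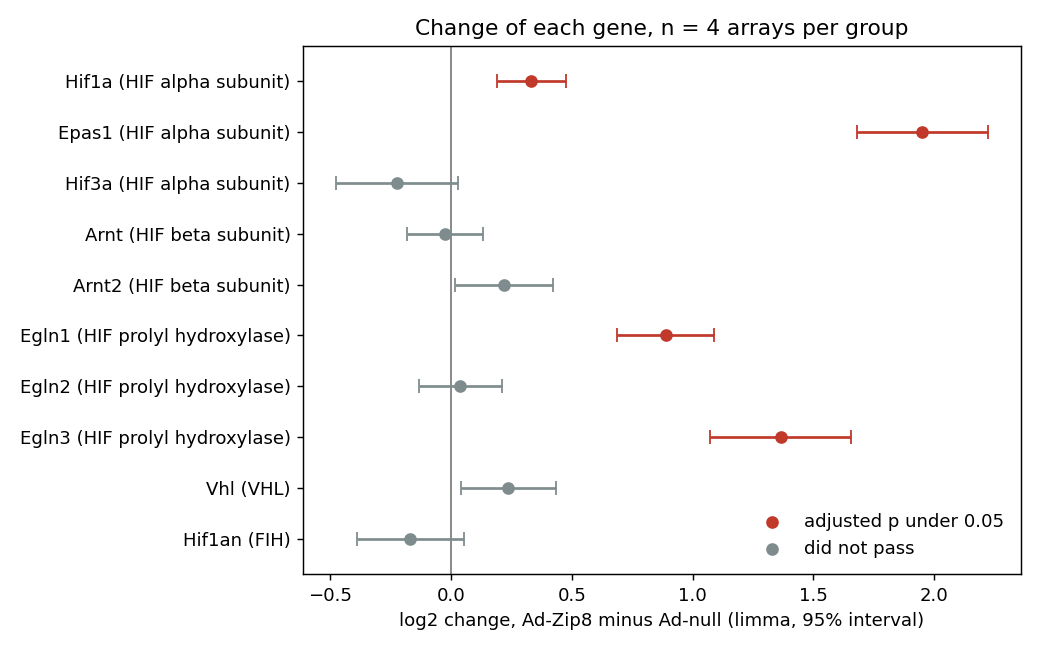
Log2 change of each gene, Ad-Zip8 minus Ad-null, with its 95% interval from limma, not adjusted for the number of genes. Red marks the 4 genes with an adjusted p under 0.05, from 0.33 for Hif1a to 1.95 for Epas1, and the intervals of Arnt2 and Vhl leave out 0 although neither gene passed the adjusted test.

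Within the alpha subunits and within the prolyl hydroxylases, some genes changed more than others. For 6 pairs, 5 of them of one role and 1 of an alpha with a beta subunit, the log2 difference between the genes was taken within each array and compared between groups by an exact two-sided permutation test, whose smallest possible p with 4 arrays against 4 is 0.0286. Epas1 rose by 1.62 more than Hif1a on the log2 scale (SE 0.15, exact adjusted p = 0.0429 over the 6 pairs). Relative to its partner gene Arnt, Epas1 rose by 1.97 more (SE 0.12, exact adjusted p = 0.0429). In both pairs every Ad-Zip8 array lay above every Ad-null array.

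Within the hydroxylases, both Egln3 and Egln1 parted from Egln2. Egln3 rose by 1.33 more than Egln2 (SE 0.19) and Egln1 by 0.85 more than Egln2 (SE 0.11), each with an exact adjusted p of 0.0429. The changes of Egln3 and Egln1 differed by 0.48 (SE 0.17), with overlapping groups and an exact adjusted p of 0.0686, and those of Arnt and Arnt2 by -0.24 (SE 0.11, exact adjusted p = 0.0857). Each of these last 2 differences passed without 1 array: Egln3 against Egln1 without Ad-null replicate 1 (0.58, exact adjusted p = 0.0343) and Arnt against Arnt2 without Ad-Zip8 replicate 4 (-0.33, exact adjusted p = 0.0343). Between arrays of the same replicate number, Egln3 against Egln1 gave 0.31 to 0.65, above 0 in 4 of 4, and Arnt against Arnt2 gave -0.50 to -0.0024, below 0 in 4 of 4. For the other pairs the same-number differences were also above 0 in 4 of 4. The permutation test above does not use the replicate numbers. An exact sign-flip test over the 4 numbers, added after seeing the data, gave p = 0.125 for each pair. That is the smallest value it can give, so it could pass no pair.

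**Figure D3:**
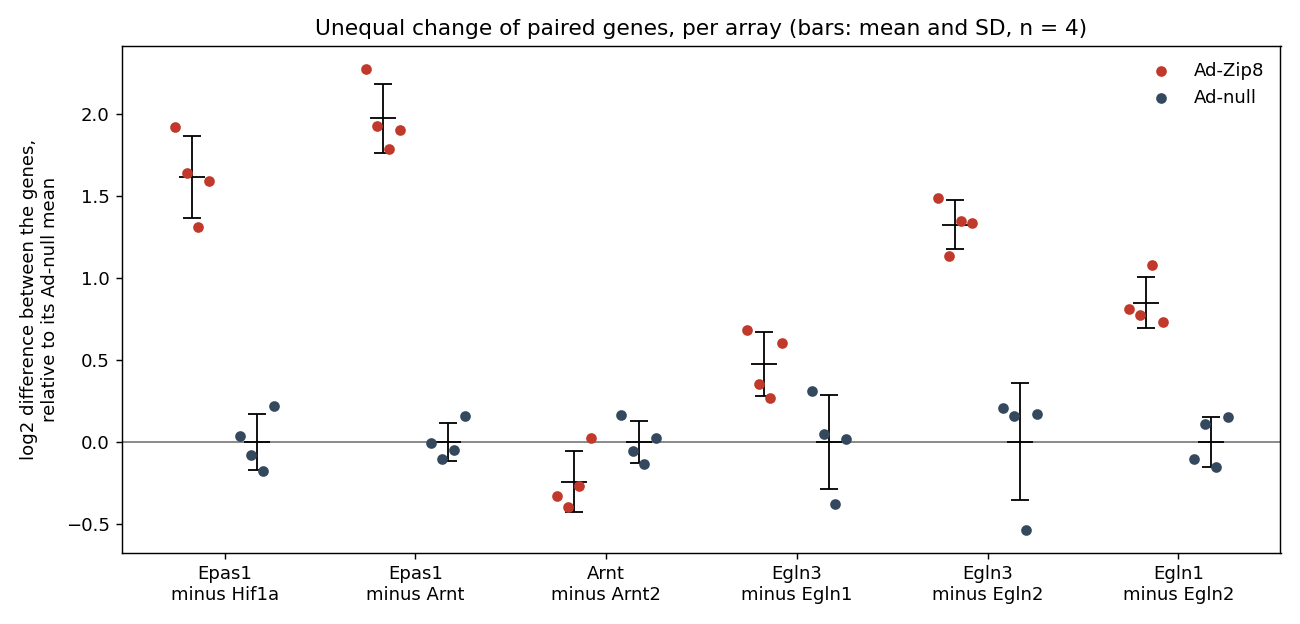
Difference between the log2 values of 2 genes in each array, set to 0 at its Ad-null mean, with Ad-Zip8 (red) left of Ad-null (dark). Bars are mean and SD (n = 4), and the groups stand apart for the pairs of Epas1 with Hif1a and with Arnt and for the pairs of Egln3 and of Egln1 with Egln2.

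The profiles most like those of Epas1, Egln3 and Hif1a were ranked by the root mean square difference of mean-centred log2 values over the 8 arrays, a description that mostly follows the size of the group difference. Genes with predicted or clone names, small RNA genes and olfactory and vomeronasal receptor genes were left out of the ranking. Nearest to Epas1 were Nrp2 (a semaphorin and VEGF coreceptor gene, difference 0.13), Sod2 (mitochondrial superoxide dismutase, 0.13), Irak3 (an inhibitor of Toll-like receptor signalling, 0.15), Gna14 (a G protein subunit, 0.15) and Zc3h12a (an RNase that degrades cytokine messages, 0.16). Their log2 changes were 1.88 to 2.00, beside 1.95 for Epas1. Nearest to Egln3 were Top2a (0.10), Pbk (0.12) and Asf1b (0.12), genes of dividing cells, followed by Ifitm2 (0.13) and the interleukin 1 receptor gene Il1r1 (0.13). Around Hif1a lay Hsd17b12 (0.04), Arhgap35, Uevld, Baz1a (0.04 each) and Map1lc3b (0.05), with log2 changes of 0.27 to 0.36.

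Apart from the EGLN genes, the listed genes of proteins that act on HIF gave no call. With 10.6% of all genes called, lists this short would hold few calls in any case. Of 12 measured genes of the VHL ligase and of HIF turnover, none passed limma in either direction, and none had an unadjusted p under 0.05. Their log2 changes lay between -0.09 and 0.20, with a median of -0.01. The smallest p values belonged to the chaperone gene Hsp90aa1 (0.20, SE 0.10), the SIAH ubiquitin ligase gene Siah1b (0.15, SE 0.09), the ubiquitin-like modifier gene Nedd8 (0.09, SE 0.08) and the VHL scaffold gene Cul2 (-0.09, SE 0.08). Of 8 coactivator and CITED genes none passed (2 had an unadjusted p under 0.05, both lower), led by Ncoa2 (-0.22, SE 0.07, limma adjusted p = 0.0887). Ncoa2 passed after dim genes were left out or with the variance trend (adjusted p as low as 0.0251). Next were Ncoa1 (-0.17, SE 0.07), Cited2 (-0.20, SE 0.09), whose product competes with HIF for p300, and Cited4 (-0.14, SE 0.11). The iron regulatory protein genes Aco1 (-0.01) and Ireb2 (-0.13) did not pass, and neither had an unadjusted p under 0.05.

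Factors of the bHLH-PAS family, to which the HIF subunits belong, were mixed. Of 11 others, 2 rose, 1 fell and 8 missed the threshold, where 5.48% of all genes were higher and 5.12% lower. Their median log2 change was 0.07. Npas2, a clock gene, averaged 9.99 ± 0.07 with Ad-Zip8 and 8.05 ± 0.09 with Ad-null (SD, n = 4 each), a log2 change of 1.95 (SE 0.07, limma adjusted p = 7.80e-07), as large as that of Epas1. Ahr, the aryl hydrocarbon receptor gene, whose product also pairs with ARNT, rose 1.84-fold (log2 change 0.88, SE 0.14, limma adjusted p = 0.00317). The repressor gene of that receptor, Ahrr, had a change of 0.43 (SE 0.13, limma adjusted p = 0.0658) and passed with the replicate block (adjusted p = 0.0223), with the variance trend and without Ad-Zip8 replicate 3. Npas3 was called lower by a narrow margin (-0.28, SE 0.08, limma adjusted p = 0.0488) and passed in 4 of 15 alternatives. Under the replicate block its adjusted p was 0.0817, and it failed without each single array other than Ad-Zip8 replicate 3 (adjusted p up to 0.122).

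Of 21 other 2-oxoglutarate oxygenase genes, whose enzymes use the same cofactors as the EGLN proteins, 4 fell, 1 rose and 16 missed the threshold, where 5.12% of all genes were lower and 5.48% higher. The median log2 change was -0.12. Collagen hydroxylase genes had the smallest p values, but others of this kind did not pass. These were P4ha2 (0.27), P4ha1 (-0.05), P3h3 (-0.13), Plod1 (-0.02) and Plod2 (-0.13). P4ha3, a collagen prolyl 4-hydroxylase subunit gene, had 8.63 ± 0.21 with Ad-Zip8 and 9.63 ± 0.07 with Ad-null (SD, n = 4 each), a log2 change of -0.999 (SE 0.10, limma adjusted p = 2.29e-04). The prolyl 3-hydroxylase genes P3h2 (-0.74, SE 0.09) and P3h1 (-0.38, SE 0.07) also fell. The fourth, Ogfod1, a prolyl hydroxylase gene of a ribosomal protein (-0.25, SE 0.07, limma adjusted p = 0.0436), passed in only 4 of 15 alternatives, with an adjusted p of 0.0761 under the replicate block and of up to 0.114 without each array in turn, none of which passed. Kdm3a, a histone demethylase gene that HIF is known to induce, was the member that rose (0.34, SE 0.08, limma adjusted p = 0.0249). Its adjusted p was 0.0508 under the replicate block, and it also failed without Ad-Zip8 replicate 1 or 3 or Ad-null replicate 3 or 4 (adjusted p up to 0.0726).

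Of the genes that HIF is known to induce, some were higher and others changed little. The list of hypoxia targets shares Kdm3a, P4ha1 and P4ha2 with the oxygenases. Of its 23 measured genes, 11 rose, none fell and 12 missed the threshold, where 5.48% of all genes were higher and 5.12% lower. Their median log2 change was 0.33, against -0.02 for all genes. At an unadjusted p under 0.05, limma gave 14 as higher and 0 as lower, beside 10.3% and 12.4% of all genes. Adm, the adrenomedullin gene, rose by 2.07 on the log2 scale (SE 0.17), the glycolysis regulator gene Pfkfb3 by 1.00 (SE 0.08), the carbonic anhydrase gene Car12 by 0.69 (SE 0.08) and the lactate dehydrogenase gene Ldha by 0.67 (SE 0.07). The 12 that missed the threshold had log2 changes from -0.05 (P4ha1) to 0.33 (Higd1a), with Slc2a1 at 0.01, Hk2 at 0.05 and Vegfa at 0.16. A further list held 13 genes described as HIF-2 alpha targets, most of them in chondrocytes. Of these, 8 rose, 2 fell and 3 did not pass, where 5.48% of all genes were higher and 5.12% lower. Their median log2 change was 1.17. Those that did not pass were Adamts4 (0.08), Mmp14 (-0.04) and Vegfa (0.16), which is in the hypoxia list too. Mmp3 (5.99, SE 0.27), Mmp13 (4.41, SE 0.24), Mmp9 (2.20, SE 0.19) and Mmp12 (1.98, SE 0.15), genes of matrix-degrading metalloproteinases, led those that rose. Col10a1, the gene of hypertrophic collagen X (-1.33, SE 0.16), and the hedgehog ligand gene Ihh (-0.60, SE 0.13) fell, although HIF-2 alpha has been described to raise both. Whether the change of Epas1 bears on any of these genes was not tested.

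**Figure D4:**
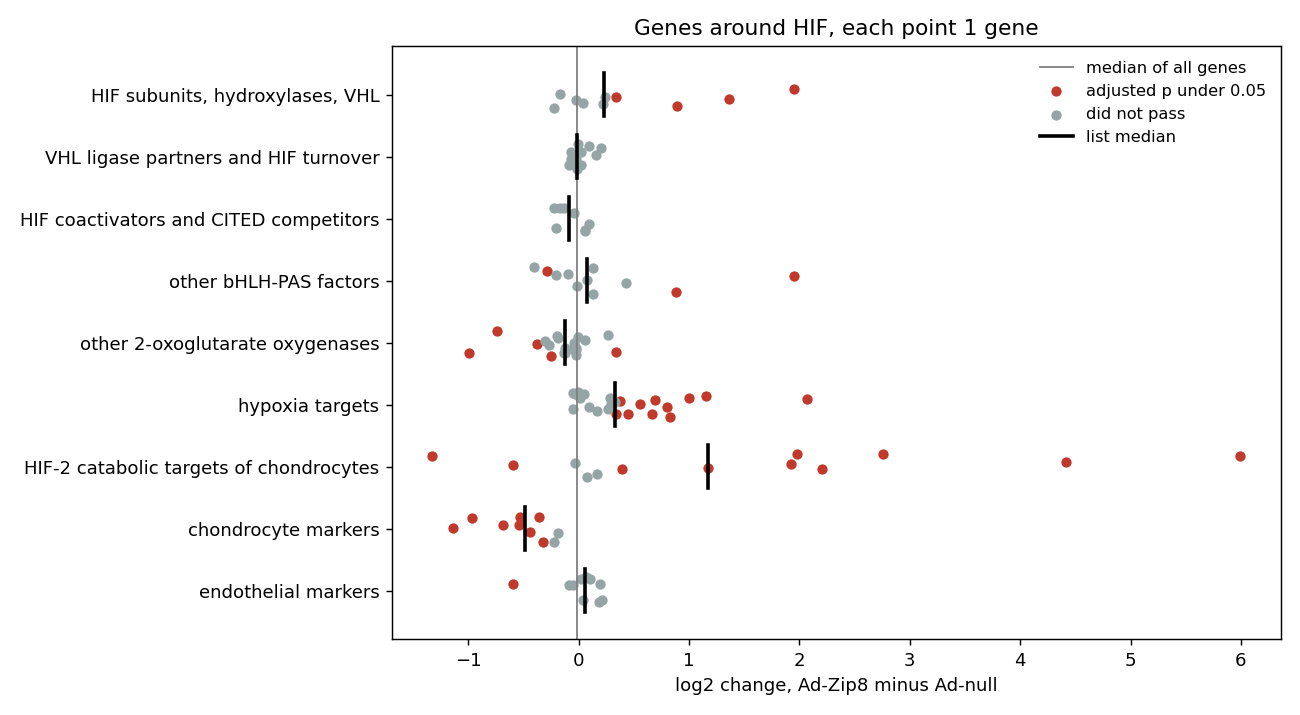
Log2 change of single genes, Ad-Zip8 minus Ad-null, in lists around HIF, with 1 point per gene, red where the adjusted p was under 0.05. Black ticks are list medians and the grey line is the median of all genes (-0.02). The ligase and coactivator genes lie close to that line, and the 11 hypoxia targets in red all lie right of it.

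Endothelial cells and macrophages, which also express Epas1, could be present in cartilage preparations. Of 10 endothelial markers none rose, 1 (Erg, which articular chondrocytes also express) fell, and 9 did not pass. Of all genes 5.48% were higher and 5.12% lower. Erg (-0.60, SE 0.15) passed in 9 of 15 alternatives but not without any 1 of the 4 Ad-Zip8 arrays or Ad-null replicate 1 or 2 (adjusted p up to 0.0729). In both groups 4 of the 10 markers (Erg, Egfl7, Pecam1 and Kdr) averaged above the highest array median, and the other 6 did not, with the endothelial cadherin gene Cdh5 (4.59 with Ad-Zip8, 4.52 with Ad-null) among them. The summed level of the endothelial list was 8.72 to 8.83 with Ad-Zip8, against 8.81 to 9.10 with Ad-null. Without Erg, its brightest member, the sum was 8.09 to 8.24 with Ad-Zip8, against 7.999 to 8.18 with Ad-null, with overlapping groups. Of 9 macrophage markers, Cd14 (1.39, SE 0.15) and Cd68 (0.83, SE 0.13) rose, Laptm5 fell (-0.72, SE 0.10) and 6 did not pass, beside the same shares of all genes. Cd14, Cd68, Laptm5 and Csf1r averaged above the highest array median in both groups and the other 5 did not, the dimmest being Ptprc, the gene of the general leukocyte antigen CD45 (3.22 with Ad-Zip8, 3.39 with Ad-null). The macrophage sum was 8.76 to 9.07 with Ad-Zip8, against 8.38 to 8.51 with Ad-null. Such a sum mostly follows its brightest members. With Ad-Zip8 these were Cd68 (7.43, against 6.60 with Ad-null) and Cd14 (6.79, against 5.40), the 2 that rose. The 6 markers that did not pass had log2 changes of -0.17 to 0.10, and no sum was taken without Cd68 and Cd14. The part of endothelial or macrophage RNA in the changes of the HIF genes was not tested.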

How the data were processed

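Total RNA of 8 cultures was labelled with biotin and hybridised to whole-transcript arrays, per the labels' protocols. The authors deposited 1 log2 value per probe set and array, and the submitters' processing notes name RMA. Neither its version nor the genome build of the array design is given in the sources used here. The values ran from 0.85 to 13.8. The number of arrays limits the precision, and no detection calls were used.

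Of 41345 probe sets, 23521 had 1 gene symbol, 1814 had several and 16010 were not named. Each gene was represented by its probe set of highest mean level across the 8 arrays, which left 22180 genes. Of the 10 genes described, Hif1a alone had several probe sets. The groups, Ad-Zip8 over Ad-null, were tested with limma 3.58.1 under R 4.3.3 (functions lmFit and eBayes; two-sided; no covariates), with Benjamini-Hochberg adjustment over all genes and a threshold of 0.05. The fit was tested on simulated data. SE is limma's moderated standard error, and for pairs of genes the SE of the difference of group means.

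The genes, lists and tests were chosen with earlier results of these data known. Lists are described by counts and medians and were not tested as sets. Beside the 10 genes and Slc39a8, the text names up to 4 genes of each list with the smallest p, called genes that go against their list, and the 5 nearest profiles of Epas1, Egln3 and Hif1a. Ogfod1, and the markers named only for their level (Cdh5, Egfl7, Pecam1, Kdr, Csf1r, Ptprc), were chosen outside this rule after their values were seen. So were the list genes named because they did not pass (P4ha1, P4ha2, P3h3, Plod1, Plod2, Higd1a, Slc2a1, Hk2, Vegfa, Adamts4, Mmp14). The list counts were recomputed under the alternatives after the data were seen. Of the list genes, some were not analysed here (26 hypoxia targets listed, 23 measured; 24 other oxygenases, 21 measured; 16 ligase and turnover genes, 12 measured).

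Arrays correlated at 0.991 to 0.993 within groups and at 0.979 to 0.986 between them, so no array duplicated another. Both groups carry replicate numbers 1 to 4. Deviations from the group means correlated at 0.11 to 0.37 between same-numbered arrays and at -0.27 to 0.16 between others. Each of the 4 was over 0.1, so arrays of one number were treated as pairs in an alternative with a replicate block. The labels do not state such pairing; it rests on these correlations.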

Additional observations from a re-analysis of the deposited data

Results flagged for a closer look

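Among the 10 genes, 2 of 20 groups held an array far from the other 3 by Dixon's criterion, which chance passes in about 1 of 20 groups. Egln1 in Ad-Zip8 replicate 3 was at 9.25, and the other Ad-Zip8 arrays ended at 8.96. Arnt in Ad-null replicate 3 was at 9.26, below the next array at 9.40. Over all the genes checked, 9 of 136 groups passed the criterion. In Ad-null replicate 3, Kdm3a was low at 7.50 (next array 7.72), Cd14 low at 5.12 (next 5.47) and Col1a2, a fibroblast marker, low at 10.24 (next 10.44), while the cartilage collagen gene Col11a2 was high at 10.93 (next 10.83) and Baz1a high at 6.47 (next 6.39). In Ad-Zip8 replicate 1, P3h1 was low at 10.54 (next 10.71) and Sod2 high at 11.95 (next 11.81). Ad-null replicate 3 holds 6 of the 9. Without Ad-null replicate 3, the same number of the 10 HIF genes were called higher (4) and none was called lower.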

How the results depend on the processing

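The calls of Epas1, Egln1 and Egln3 held in all 15 alternative limma fits: with the replicate block, without dim genes, with the variance trend or robust variances, under both rescalings of the arrays, with the mean of all probe sets and without each array. Over these, the log2 change was 1.85 to 2.04 for Epas1, 0.81 to 0.92 for Egln1 and 1.24 to 1.44 for Egln3. The fit without dim genes kept genes by their mean over all 8 arrays, with a cut at the median level of all genes (5.64). Egln3 averaged 5.27 with Ad-null and was kept only through its Ad-Zip8 level, so that fit is no separate support for its call. Hif1a passed in 14 of 15 and had an adjusted p of 0.0725 with the mean of its probe sets, which then left 3 genes higher. Arnt reversed to 0.010 (from -0.024, neither past the threshold) when quantile normalized again. None of the other 6 genes passed in any of these fits, though Hif3a was not in the fit without dim genes. The block, which gave 4 higher and 0 lower, changed no call of the 10. An exact permutation test gave Epas1, Egln1, Egln3 and Hif1a an unadjusted p of 0.0286, the smallest possible. Without each array in turn, 924 to 1119 of all genes rose and 708 to 923 fell, against 1216 and 1136 with all arrays, with the lowest counts of genes that fell without Ad-Zip8 replicate 1 (708) and Ad-null replicate 1 (721). Without dim genes, which left 11090 genes tested in place of 22180, 1297 rose and 1625 fell. With the variance trend 1414 rose and 1621 fell, so in both fits more genes fell than rose. With 1 array left out, the differences between changes ranged from 1.51 to 1.72 for Epas1 and Hif1a, 1.87 to 2.04 for Epas1 and Arnt, 1.15 to 1.40 for Egln3 and Egln2, 0.77 to 0.90 for Egln1 and Egln2, 0.35 to 0.58 for Egln3 and Egln1 and -0.33 to -0.19 for Arnt and Arnt2. An exact sign-flip test of these differences over the 4 replicate numbers, added after seeing the data, cannot go below 0.125, the value it gave for each pair. Array signal limits Hif3a, Arnt2 and the Ad-null level of Egln3, all near the array medians. For the lists, recounted by a choice made after seeing the data, the count of hypoxia targets higher was 9 to 14 over the alternatives and that of chondrocyte markers lower 6 to 10. The count of HIF-2 alpha targets higher was 6 to 8, and that of bHLH-PAS factors higher 2 to 3. The count of coactivators lower was 0 to 1, that of other oxygenases higher 0 to 2 and lower 3 to 6, that of bHLH-PAS factors lower 0 to 2, that of fibroblast markers 1 to 2 in each direction, and that of endothelial markers lower 0 to 1. The cause of these shifts was not tested.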
